A study of Mus musculus with 8 samples.

Results

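The Elfn, Lrrtm and Flrt genes and Lingo1 encode leucine-rich repeat adhesion proteins of the neuronal surface. They were followed here in the medial ganglionic eminence (MGE) of WT mouse embryos and of embryos lacking the transcription factor NKX2-1 in this tissue (Nkx2-1cKO). The 10 genes were Elfn1, Elfn2, Lrrtm1, Lrrtm2, Lrrtm3, Lrrtm4, Flrt1, Flrt2, Flrt3 and Lingo1. A gene's probes were the noncontrol probes whose RefSeq accession maps to its symbol. The genes were chosen by family with the signals of these WT and Nkx2-1cKO arrays already in view, so the differences between WT and Nkx2-1cKO below are a description and not an independent test. In all, 9 of the 10 genes were among the 17178 gene symbols matched to probes of the whole mouse genome array, with 11 of its 41174 probes. Lrrtm1 had no probe matched by accession and has no value here.

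Both groups were of strain C57BL/6 and were taken at embryonic day 13.5. The labels give the genotype of the 4 WT samples as Nkx2-1flox/+;Olig2tva-cre- and that of the 4 Nkx2-1cKO samples as Nkx2-1flox/+;Olig2tva-cre+, so both carry a floxed Nkx2-1 allele by these labels and differ in the Cre, which is expressed from Olig2 regulatory sequence. The methods of the study instead name an Nkx2-1f/f strain, together with Olig2-tva-Cre and an AI14 Cre-reporter, as the source of the mutants. RNA of micro-dissected MGE was amplified, labelled with Cy3 and hybridised with 1 sample per 1-colour Agilent array. The labels do not say which embryos or litters were sampled, so any spread given here is the spread between these samples, which may be technical. The arrays lay on 2 slides, each with 2 WT and 2 Nkx2-1cKO samples, and by array 71.1% to 79.5% of the probes stood well above background. The Nkx2-1 probe fell from a log2 signal of 1.87 ± 0.06 (SD, n = 4) to -4.46 ± 0.19 (SD, n = 4), or to 1.24% of the WT level (adjusted p = 4.7e-09, limma). Whether this probe lies inside the floxed part of the gene was not tested.

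Proteins of these families carry a stack of leucine-rich repeats outside the cell and a single membrane-spanning segment, and most of them act at contacts between neurons. ELFN proteins bind group III metabotropic glutamate receptors across the synapse, and Elfn1 is known from somatostatin interneurons, which are born in the MGE. LRRTM proteins are postsynaptic ligands of neurexins and of glypicans with heparan sulfate, and FLRT proteins bind latrophilins and UNC5 receptors and take part in cell migration and axon guidance. LINGO1 is a co-receptor of the Nogo receptor complex, known for restraining axon growth and myelination.

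The promoters of Elfn1 and Flrt2, whose signals differed most between the groups, are shown with those of Elfn2 and Flrt3, each a member of the same family whose signal did not pass the threshold. Each sequence holds the 250 bases before the RefSeq start of the gene (GRCm38.p6), 5′ to 3′ on the strand of the gene, and capitals mark matches to the motifs named after the sequences. Elfn1 lies at chr5:139907616-139907865 on the plus strand, Elfn2 at chr15:78718772-78719021 on the minus strand, Flrt2 at chr12:95691976-95692225 on the plus strand and Flrt3 at chr2:140671477-140671726 on the minus strand.
Elfn1: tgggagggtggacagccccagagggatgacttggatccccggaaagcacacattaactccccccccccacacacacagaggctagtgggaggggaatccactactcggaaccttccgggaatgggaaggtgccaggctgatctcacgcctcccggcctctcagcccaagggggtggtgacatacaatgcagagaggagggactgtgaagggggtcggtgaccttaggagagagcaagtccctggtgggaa
Elfn2: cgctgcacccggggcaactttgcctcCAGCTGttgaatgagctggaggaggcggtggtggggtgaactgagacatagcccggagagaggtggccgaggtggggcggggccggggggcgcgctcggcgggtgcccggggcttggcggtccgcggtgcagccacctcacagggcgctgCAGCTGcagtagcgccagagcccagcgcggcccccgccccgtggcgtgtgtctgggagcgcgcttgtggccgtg
Flrt2: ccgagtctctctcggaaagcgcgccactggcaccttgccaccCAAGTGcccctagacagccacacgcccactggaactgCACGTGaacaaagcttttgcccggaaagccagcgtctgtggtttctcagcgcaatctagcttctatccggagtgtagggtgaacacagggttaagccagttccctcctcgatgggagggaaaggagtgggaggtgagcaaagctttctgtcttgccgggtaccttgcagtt
Flrt3: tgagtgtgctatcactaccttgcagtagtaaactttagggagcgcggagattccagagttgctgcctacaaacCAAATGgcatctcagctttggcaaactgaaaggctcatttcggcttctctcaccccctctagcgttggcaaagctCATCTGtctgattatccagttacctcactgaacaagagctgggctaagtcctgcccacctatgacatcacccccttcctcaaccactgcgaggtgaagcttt

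Both strands were searched for TAATTA (the core read by LIM homeodomain factors), CAAGTG (the NKX2-1 core), CANNTG (the E-box), TGACAG (the MEIS core) and ATGCAAAT (the octamer). CAAGTG is itself a form of the E-box. The Elfn1 window held no match to any of them. The Flrt2 window held a CAAGTG that begins 208 bases before the start and a further E-box at 171 bases. In the Elfn2 window E-boxes began 224 and 74 bases before the start, and in the Flrt3 window 177 and 102 bases before it. Of 32851 mouse promoter windows of the same length, 4.84% held TAATTA, 11.61% CAAGTG, 66.22% an E-box, 15.86% TGACAG and 1.6% the octamer. The GC content was 60.8% for Elfn1, 73.6% for Elfn2, 57.2% for Flrt2 and 50% for Flrt3, against a median of 52.4% over all windows. These matches are letters in a window and say nothing of binding.

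Signals are given as log2 of the intensity relative to the 75th percentile of the same array. A value of 0 thus lies at that percentile, and probes of different genes are not compared in level. A probe entered the limma fit if 4 or more of the 8 arrays showed it well above background, which left 31283 probes, and a gene with several probes is represented by its brightest tested probe. Of the 10 genes, 8 were tested. Elfn1 was lower and Flrt2 was higher in the Nkx2-1cKO at an adjusted p under 0.05 over all probes, and the other 6 genes did not pass. Among all tested probes, 0.614% were called lower and 0.422% higher. Every Nkx2-1cKO array lay below every WT array for 1 gene, Elfn1, and above for 1 gene, Flrt2, as it did for 4.11% and 2.29% of all probes. The median difference of the 8 genes was -0.01, with 4 means lower and 4 higher. The median was -0.002 over the 14449 tested genes with a symbol and -0.04 over all tested probes. Since the genes were chosen with this contrast in view, nothing is read from these counts.

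**Figure D1:**
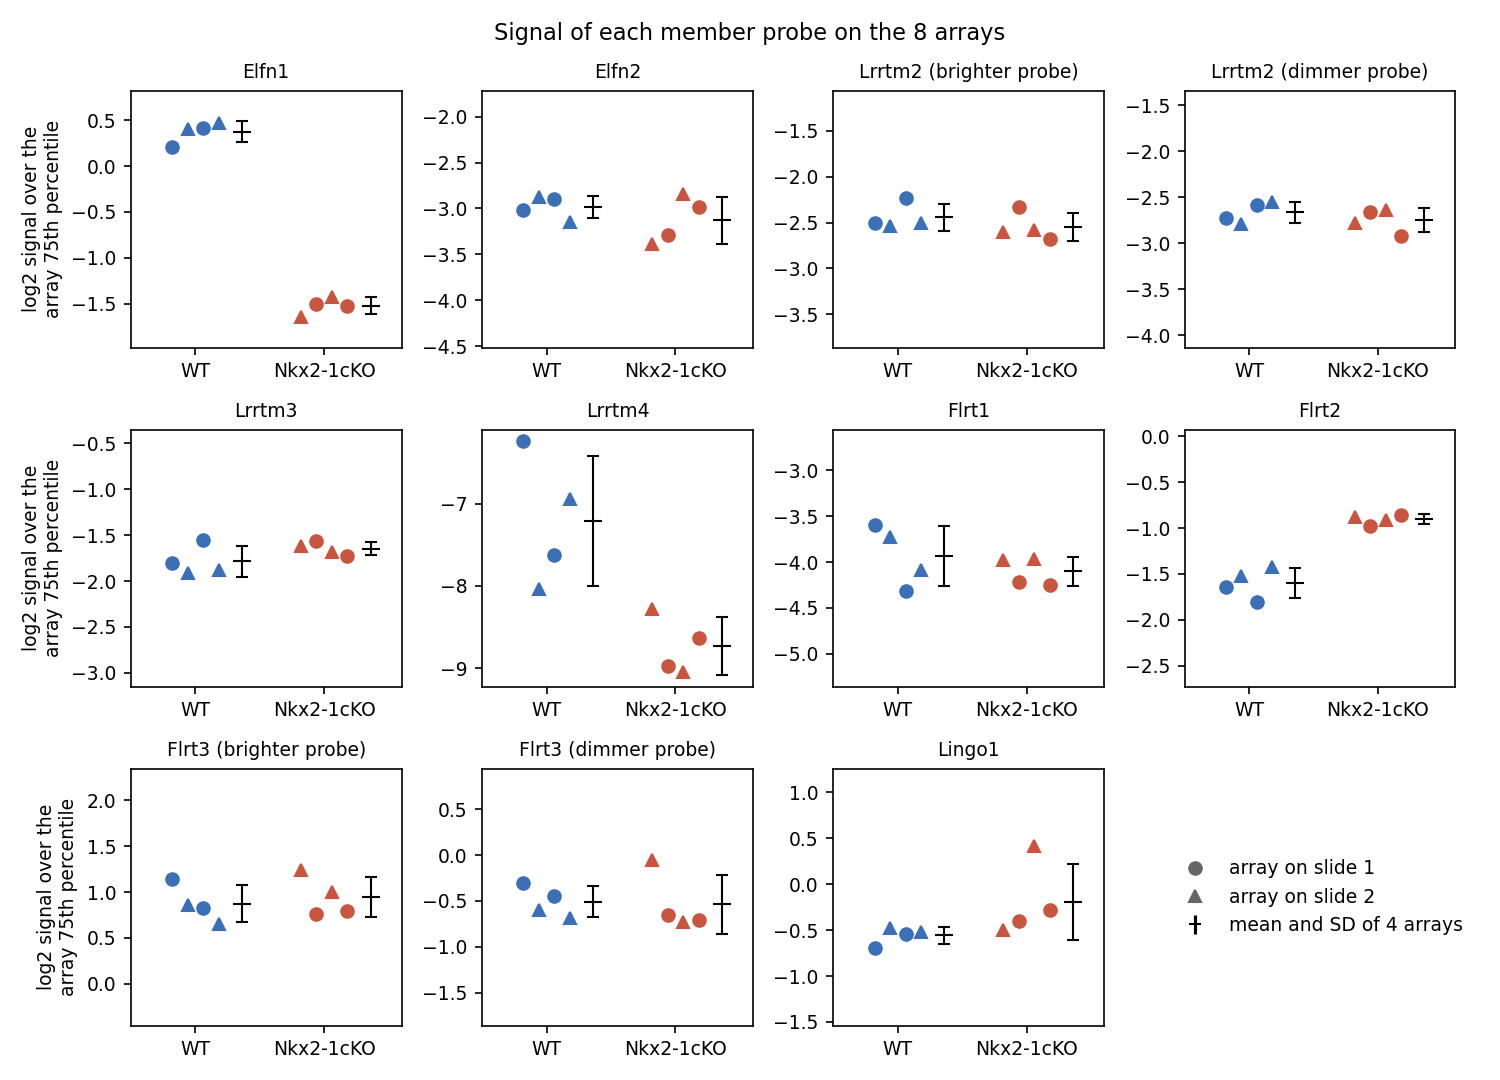
Signal of the 11 member probes on each array, as log2 of the intensity over the array's 75th percentile (vertical axis, own scale in each panel), for 4 WT (blue) and 4 Nkx2-1cKO arrays (red). Circles are arrays of slide 1 and triangles of slide 2, and bars give the mean and SD of 4 arrays. The groups lie apart for Elfn1 and Flrt2, and for Lrrtm4, which was well above background on 1 of 8 arrays only.

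Elfn1 fell in the Nkx2-1cKO to 26.9% of its WT level, a 3.72-fold decrease. Its log2 signals were 0.21, 0.41, 0.41 and 0.47 in WT replicates 1 to 4, and -1.64, -1.50, -1.42 and -1.52 in Nkx2-1cKO replicates 1 to 4. The lowest WT array thus stood well above the highest Nkx2-1cKO array, and both groups were tight, with means of 0.38 ± 0.11 (SD, n = 4) and -1.52 ± 0.09 (SD, n = 4). The log2 difference was -1.90 with a standard error of 0.09 (95% interval -2.11 to -1.69). It was -1.82 on slide 1 and -1.97 on slide 2. Of 14449 genes tested, 37 had a lower difference than Elfn1. In dissected tissue, fewer cells of a type and less RNA per cell cannot be told apart.

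The marker genes of MGE-derived neurons moved in the same direction as Elfn1. Of 17 such genes tested, 12 were lower in the Nkx2-1cKO and 0 higher, beside 0.614% and 0.422% of all tested probes. The 12 include Nkx2-1 itself, at -6.34, whose fall was set by the design. It also enters the median and the summed level of the list. The study had already described Lhx6 and Lhx8 as not activated in Nkx2-1 mutants and Sox6 as reduced in this mutant. The list is thus not independent of the mutant. The median log2 difference was -1.64, and Lhx6, the LIM homeobox gene of these neurons, differed by -4.20. The summed level of this list, in multiples of the 75th percentile, was 89.7 to 97.9 on the WT arrays and 35.6 to 37.1 on the Nkx2-1cKO arrays. Not all of its genes moved, since Gad1, which encodes a GABA-synthesising enzyme, differed by -0.20 and Dlx5, a homeobox gene of the subpallium, by 0.05, both without passing the threshold (adjusted p = 0.684 and 0.855, limma). The part of these markers in the difference of Elfn1 was not tested.

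Elfn2, the other member of its family, had log2 signals of -3.02, -2.88, -2.90 and -3.14 in WT replicates 1 to 4 and of -3.39, -3.29, -2.84 and -2.99 in Nkx2-1cKO replicates 1 to 4. The groups overlapped, since Nkx2-1cKO replicates 3 and 4 lay within or above the WT range and replicates 1 and 2 below it. The means were -2.99 ± 0.12 (SD, n = 4) and -3.13 ± 0.26 (SD, n = 4). The log2 difference of -0.14 had a 95% interval of -0.47 to 0.19, which does not reach the interval of Elfn1.

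The LRRTM genes were measured by 3 tested probes, and none of them passed the threshold. Lrrtm2 had log2 signals of -2.50, -2.54, -2.23 and -2.51 in WT and of -2.60, -2.33, -2.58 and -2.68 in the Nkx2-1cKO on its brighter probe. The groups overlapped, with WT replicate 3 the highest of the 8 arrays. The log2 difference was -0.10 (95% interval -0.38 to 0.17) on this probe and -0.09 (95% interval -0.34 to 0.17) on the dimmer one, so the probes gave like values.

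Lrrtm3 had log2 signals of -1.80, -1.91, -1.55 and -1.88 in WT and of -1.61, -1.57, -1.69 and -1.73 in the Nkx2-1cKO. All 4 Nkx2-1cKO arrays lay between the lowest and the highest WT array. The means were -1.79 ± 0.16 (SD, n = 4) and -1.65 ± 0.07 (SD, n = 4), and the log2 difference was 0.14 (95% interval -0.10 to 0.38).

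Lrrtm4 was near the limit of the array. Its probe was well above background on 1 of 8 arrays, WT replicate 4, and on 0 of the 4 Nkx2-1cKO arrays, so it was not tested. The log2 signals were -6.24, -8.04, -7.62 and -6.95 in WT and -8.28, -8.97, -9.04 and -8.64 in the Nkx2-1cKO. The WT mean of -7.21 lay below the mean of the lowest signals that counted as well above background on the Nkx2-1cKO arrays, which was -6.88, so no fold is given. WT replicate 1 also read high over dim probes in general, with a median deviation from the other 7 arrays of 1.18 among the dimmest 20% of tested probes, where the other arrays deviated by -0.41 to 0.22. Among the next 20%, which hold Elfn2 and Flrt1, it deviated by 0.38.

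Among the FLRT genes, Flrt2 was 1.62-fold higher in the Nkx2-1cKO. Its log2 signals were -1.64, -1.52, -1.80 and -1.43 in WT replicates 1 to 4 and -0.88, -0.98, -0.91 and -0.85 in Nkx2-1cKO replicates 1 to 4. All 4 Nkx2-1cKO arrays lay above the highest WT array, and they spread less than the WT arrays, with means of -1.60 ± 0.16 (SD, n = 4) and -0.90 ± 0.05 (SD, n = 4). The log2 difference was 0.69 with a standard error of 0.10 (95% interval 0.46 to 0.92). It was 0.80 on slide 1 and 0.58 on slide 2, and 106 of the 14449 genes tested had a higher difference. Flrt2 did not pass the threshold after another background correction (normexp), where its difference was 0.74.

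Of 15 markers of the neighbouring lateral and caudal ganglionic eminences (LGE and CGE), 8 passed as higher, as Flrt2 did, and 0 as lower. Among all tested probes 0.422% were called higher and 0.614% lower. The median log2 difference of the list was 0.60. The 8 genes were Meis2, Ebf1, Isl1, Foxp2, Zfp503, Tle4, Rarb and Six3, among which Ebf1, a transcription factor of LGE neurons, differed by 1.37 and Zfp503, a zinc finger gene of the same region, by 1.39. The study had already reported Meis2 as raised in this mutant. It also named Ebf1, Isl1, Zfp503 and Tle4 beside repressing elements with MEIS2 motifs, so the list is not independent of the mutant. The genes known as CGE factors did not pass, with differences of 0.10 for Nr2f1, -0.13 for Nr2f2, -0.04 for Prox1 and 0.34 for Sp8. The summed level of the list was 62.6 to 73.5 on the WT arrays and 105 to 114 on the Nkx2-1cKO arrays. Meis2, a homeobox gene, carried much of this sum, and without it the sum was 36.1 to 45.4 in WT and 52.9 to 59.4 in the Nkx2-1cKO. Of 13 markers of postmitotic neurons in general, 2 were higher and 0 lower, with a median of 0.00. Those 2 were the neurofilament genes Nefl, at 0.85, and Nefm, at 0.75 (adjusted p = 0.015 and 0.024, limma). A further 4 lay below WT without overlap and did not pass, where 4.11% of all tested probes lay below without overlap. Among them Dcx differed by -0.25, but by -0.03 and -0.04 on its dimmer probes, whose groups overlapped. The summed level of these neuronal markers was 206 to 219 in WT and 203 to 224 in the Nkx2-1cKO. Of 16 markers of blood, vessel, mesenchyme and microglia, 0 passed in either direction, and their summed level was 33.9 to 50.8 in WT and 36.3 to 54.3 in the Nkx2-1cKO. Without the globin gene Hba-x the sum was 16.8 to 23.0 and 17.0 to 21.8. The mesenchyme genes varied widely between WT arrays, with SDs of 1.99 for Col1a1, 1.37 for Col3a1, 2.03 for Dcn and 3.24 for Lum. Their differences were 0.70, -0.85, -2.45 and -1.95, so the lack of calls does not show equal content. The part of these cell types in the difference of Flrt2 was not tested.

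Flrt1 had log2 signals of -3.60, -3.73, -4.31 and -4.08 in WT and of -3.98, -4.22, -3.96 and -4.25 in the Nkx2-1cKO. The WT arrays spread over more than the whole range of the Nkx2-1cKO arrays, and WT replicate 1 was the highest. The means were -3.93 ± 0.33 (SD, n = 4) and -4.10 ± 0.15 (SD, n = 4), a log2 difference of -0.17 (95% interval -0.59 to 0.25).

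Flrt3 had log2 signals of 1.15, 0.86, 0.83 and 0.65 in WT and of 1.24, 0.76, 1.00 and 0.80 in the Nkx2-1cKO on its brighter probe. The groups overlapped, and replicate 1 was the highest array of either group. The log2 difference was 0.08 (95% interval -0.23 to 0.38). It was -0.21 on slide 1 and 0.36 on slide 2, and on the dimmer probe it was -0.30 and 0.24, so both probes gave opposite signs on the 2 slides. Whether the slides differ in this respect was not tested. The dimmer probe differed by -0.03 (95% interval -0.39 to 0.33) over all 8 arrays.

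Lingo1 had the largest difference among the genes that did not pass. Its log2 signals were -0.70, -0.48, -0.54 and -0.51 in WT and -0.50, -0.40, 0.42 and -0.28 in the Nkx2-1cKO. Nkx2-1cKO replicate 3 stood above all other arrays, replicate 1 lay within the WT range, and replicates 2 and 4 lay slightly above it. The means were -0.56 ± 0.10 (SD, n = 4) and -0.19 ± 0.41 (SD, n = 4), with a log2 difference of 0.37 (95% interval -0.04 to 0.78). Without Nkx2-1cKO replicate 3 the difference was 0.17.

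**Figure D2:**
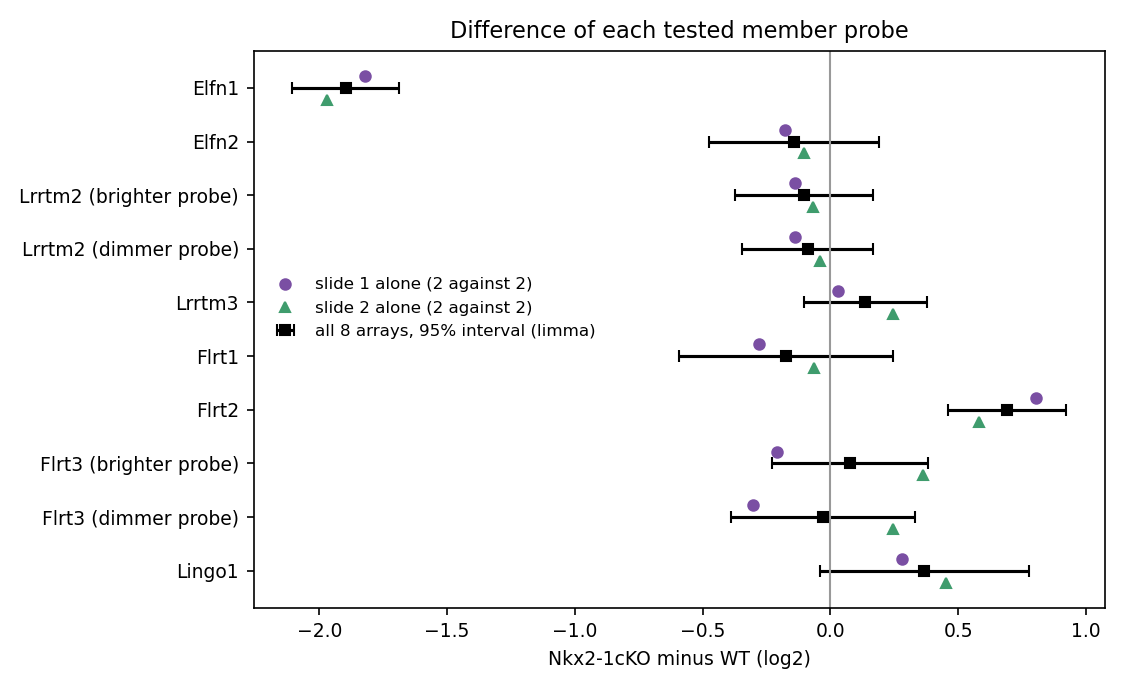
Difference between Nkx2-1cKO and WT on the log2 scale (horizontal axis) for the 10 tested member probes. Squares with bars give the limma estimate from 8 arrays with its 95% interval, circles slide 1 alone and triangles slide 2 alone. Elfn1 at -1.90 and Flrt2 at 0.69 stand away from 0 on both slides, and the Flrt3 probes fall on either side of 0 by slide.

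The slide of an array was a property that the choice of genes did not use. Slide 2 was compared with slide 1 with genotype in the model. Of all tested probes, 14.2% differed between the slides, and 0 of the 8 genes did (limma, adjusted p from 0.330 to 0.964). Their slide differences ranged from -0.12 for Lrrtm2 to 0.21 for Lingo1 on the log2 scale. The median absolute slide difference was 0.117 for these genes, by their brightest probes, and 0.198 over all tested probes, dimmer probes of a gene included. These sets are unlike, and 0 of 8 genes is not far from 14.2%, so nothing is read from either. When arrays were centred on the median in place of the 75th percentile, 1 gene, Flrt2, differed between slides by 0.33 (adjusted p = 0.033, limma). Under the other alternatives the adjusted p of Flrt2 was 0.227 to 0.742 (limma).

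The genes whose profile over the 8 arrays came nearest to Elfn1 were Nxph1, Sst, Pdgfra, Timmdc1 and Slc10a4, of 14419 genes compared. Likeness was the root mean square difference of log2 signals after each gene was centred on its own mean. It was 0.15 for Nxph1, which encodes the neurexin ligand neurexophilin 1, and 0.16 for Sst, which encodes somatostatin. It was 0.17 for Pdgfra, the receptor known from oligodendrocyte precursors, 0.18 for Timmdc1, a mitochondrial complex I assembly gene, and 0.18 for Slc10a4, a transporter gene of the bile acid carrier family. Their log2 differences were -2.02 for Nxph1, -1.73 for Sst, -1.76 for Pdgfra, -1.75 for Timmdc1 and -1.99 for Slc10a4, beside the -1.90 of Elfn1. As the profile of Elfn1 is set mainly by the gap between the groups, this is a description of genes with a like gap.

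**Figure D3:**
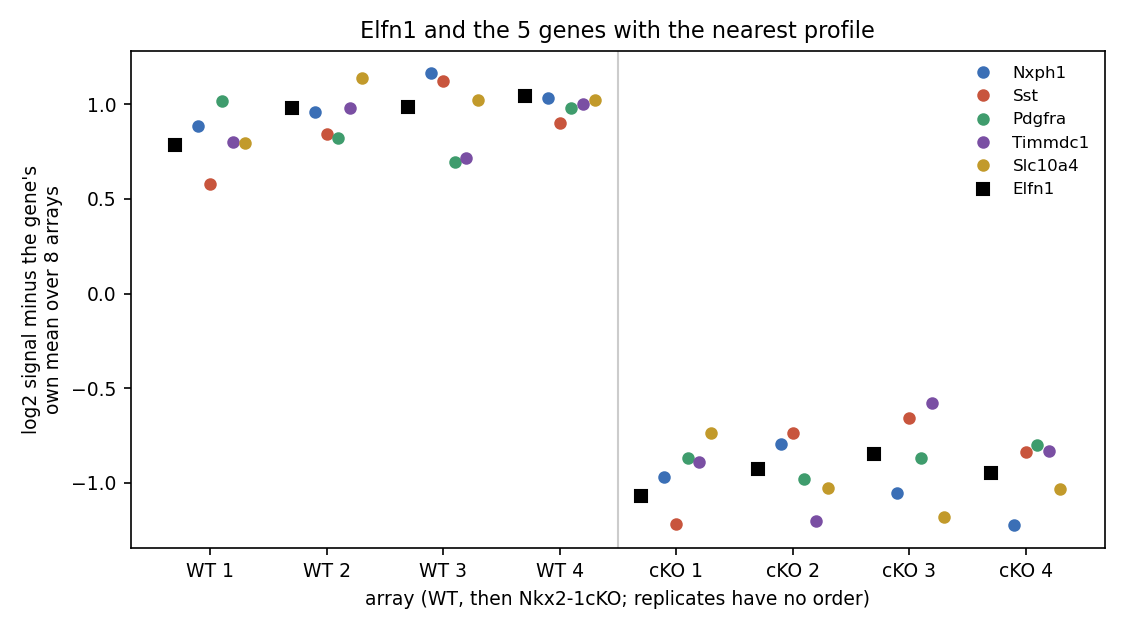
Log2 signal of Elfn1 (black squares) and of the 5 genes nearest to it (coloured circles) on each array, each gene minus its own mean over the 8 arrays. WT arrays stand on the left and Nkx2-1cKO arrays on the right of the grey line, and replicates have no order. All 6 genes lie above 0 on the 4 WT arrays and below 0 on the 4 Nkx2-1cKO arrays.

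Several of the genes lie inside other genes. In the RefSeq gene table of GRCm38.p6, Lrrtm1 lies within Ctnna2, Lrrtm2 within Ctnna1 and Lrrtm3 within Ctnna3, all of which encode alpha-catenins, while Flrt1 lies within Macrod1 and Flrt3 within Macrod2, which encode ADP-ribose hydrolases. Of these 5 host genes, 4 were tested and 0 passed the threshold (limma), with log2 differences of 0.00 for Ctnna1, -0.06 for Ctnna2, 0.23 for Macrod1 and -0.03 for Macrod2. The genes on either side of Elfn1, the proteasome chaperone gene Psmg3 and the spindle checkpoint gene Mad1l1, differed by 0.20 and 0.05. Next to Flrt2, Galc, which encodes the lysosomal enzyme galactosylceramidase, differed by -0.13. None of these 3 neighbours passed the threshold (limma, adjusted p = 0.662 for Psmg3, 0.915 for Mad1l1 and 0.730 for Galc).

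Genes listed as partners of these proteins differed less than Elfn1. The list of 24 partner genes held neurexins, glypicans, latrophilins, UNC5 receptors, group III metabotropic glutamate receptors, receptor phosphatases and the co-receptors of LINGO1. Of these, 23 were tested, 1 was lower, 0 were higher and 22 did not pass, with a median log2 difference of 0.09. Over all tested probes 0.614% were called lower and 0.422% higher. The Nkx2-1cKO arrays lay below WT without overlap for 4 partners and above for 0, beside 4.11% and 2.29% of all tested probes. The gene that fell was Ptprd, a receptor phosphatase that binds postsynaptic adhesion proteins, with log2 signals of 1.84, 1.83, 1.81 and 1.62 in WT and 1.07, 1.34, 1.25 and 1.15 in the Nkx2-1cKO. Its groups did not overlap, and the log2 difference was -0.58 (standard error 0.09, adjusted p = 0.015, limma). Whether PTPRD binds any of the 10 members was not examined. A further Ptprd probe differed by -0.56 and did not pass (adjusted p = 0.051, limma). Grm7, which encodes a glutamate receptor bound by ELFN1, differed by -0.33 (adjusted p = 0.644, limma), and by -0.17 without WT replicate 1. Adgrl3 and Unc5d, whose products bind FLRT proteins, differed by -0.65 and -0.43 (adjusted p = 0.651 and 0.527, limma). The probes of Grm7, Adgrl3 and Unc5d were dim, with WT means of -4.22, -4.52 and -4.01. Some partners of the same families had higher means in the Nkx2-1cKO. They were Grm4 (0.09), Grm8 (0.11), Adgrl1 (0.10), Unc5a (0.27) and Unc5b (0.20), and none passed. Of the 23 tested partners, 8 means were lower and 15 higher. Adgrl3 differed by -1.19 on slide 1 and -0.11 on slide 2, and by -0.26 without WT replicate 3. Unc5d differed by -0.29 without WT replicate 1. The call of Ptprd was lost without WT replicate 2 (-0.56), WT replicate 3 (-0.56), Nkx2-1cKO replicate 1 (-0.53) or Nkx2-1cKO replicate 4 (-0.56), and with centring on the median (-0.46).

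A further 32 leucine-rich adhesion genes of neurons were all tested, among them the other Lingo genes and the Slitrk, Lrfn, Lrrc4, Amigo, Lrrn and Lrig families. Of these, 1 was lower, 0 were higher and 31 did not pass, with a median log2 difference of -0.03. Over all tested probes 0.614% were called lower and 0.422% higher. The Nkx2-1cKO arrays lay below WT without overlap for 2 genes of this list and above for 2, beside 4.11% and 2.29% of all tested probes. The gene that fell was Lrrn1, a leucine-rich repeat gene of neural progenitors and neurons, with log2 signals of 1.74, 1.71, 1.69 and 1.49 in WT and 1.27, 1.11, 1.07 and 1.11 in the Nkx2-1cKO. Its groups did not overlap, and the log2 difference was -0.52 (standard error 0.09, adjusted p = 0.022, limma). It no longer passed with centring on the median (-0.40), nor without any 1 of 6 arrays, namely WT replicates 1 (-0.49), 2 (-0.50) and 3 (-0.51) and Nkx2-1cKO replicates 2 (-0.50), 3 (-0.49) and 4 (-0.51). Islr2, a leucine-rich gene of axon guidance picked out after its values were seen, had the largest difference of the list. Its log2 signals were 1.55, 1.51, 1.05 and 0.80 in WT and 2.19, 1.76, 2.88 and 2.95 in the Nkx2-1cKO, without overlap but with a wide spread in both groups. The log2 difference of 1.22 had a standard error of 0.28 (adjusted p = 0.098, limma), and it passed the threshold without Nkx2-1cKO replicate 2 and with normexp. The paralogues of Lingo1 differed by -0.13 for Lingo2, 0.03 for Lingo3 and -0.08 for Lingo4.

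**Figure D4:**
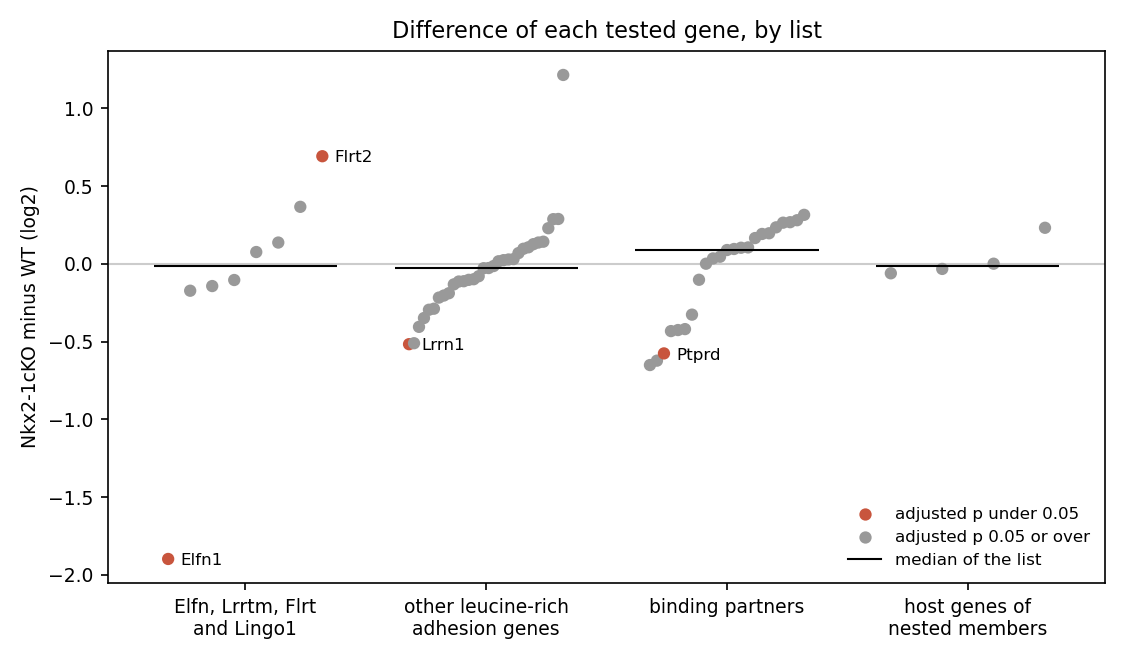
Difference between Nkx2-1cKO and WT on the log2 scale (vertical axis) for each tested gene of 4 lists, with genes in order of size within a list. Red points passed an adjusted p of 0.05 over all probes, grey points did not, and black lines are medians. Elfn1 at -1.90, Flrt2 at 0.69, Ptprd at -0.58 and Lrrn1 at -0.52 are the named points.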

How the data were processed

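The authors deposited Agilent Feature Extraction output, in which the processed intensity of each spot is background-subtracted and detrended within its array, not scaled between arrays. The submitters' processing notes name version 10.1 of this software, and the file headers name another version. From these files, control and outlier spots were left out, log2 of the intensity was set relative to the array's 75th percentile, and spots of a probe were averaged. Accessions were matched to RefSeq symbols (24844 of 41174 probes). Probes flagged well above background on 4 or more of 8 arrays were fitted with lmFit and eBayes with a variance trend (limma 3.58.1, R 4.3.3), with Benjamini-Hochberg adjustment over 31283 probes (53 missing values) and a threshold of 0.05. The procedure was tested on simulated data. The number of arrays limits the precision. The 75th percentile of the intensity was 2413 to 2573 on WT and 2026 to 2522 on Nkx2-1cKO arrays, and 0 spots were saturated.

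The members and the gene lists were chosen with earlier results of these data known. Named genes were all members, their host genes, partner and other leucine-rich genes past the threshold, and the 5 profiles nearest to Elfn1. Other genes are named as members of a list, as neighbours or as a check, and those examples were chosen after their values were seen. Summed levels add the signals of a list's representing probes. Motifs were searched in RefSeq promoters of 8 of the 10 members. That the remaining members were left out of the search does not show that they lack a promoter. Deviations from the group means went in opposite directions in samples that share a replicate number (correlations -0.48 to -0.19). Such samples always lay on different slides, and slide was not removed first, so this cannot decide whether they are paired. The main fit treats the samples as unpaired. As alternatives, arrays were scaled by quantiles or centred on the median, background was corrected by normexp (offset 50, on median spot signals, since the files hold no mean), dim probes were kept, slide or replicate number was a block, probes of a gene were averaged, and each array was left out once. The values of 1 partner gene are not reported here.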

Additional observations from a re-analysis of the deposited data

Results flagged for a closer look

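In 4 of 44 groups of 4 arrays examined among the named genes, 1 array lay far from the other 3 of its group by Dixon's criterion, where chance gives about 2.2, or 1 in 20. In Nkx2-1cKO replicate 1 the dimmer Flrt3 probe read -0.055, where the rest of its group read -0.73 to -0.65. The brighter Lrrtm2 probe read -2.23 in WT replicate 3, against -2.54 to -2.50. The Ctnna1 probe read 3.85 in Nkx2-1cKO replicate 2, against 4.14 to 4.19. The Ptprd probe read 1.62 in WT replicate 4, against 1.81 to 1.84.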

How the results depend on the processing

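Elfn1 passed the threshold under all 15 alternatives, with a log2 difference of -1.95 to -1.66, and Flrt2 under 13 of 15, with 0.62 to 0.81. Without each array in turn both passed in 8 of 8 fits. Flrt2 no longer passed with normexp (0.74) or with the replicate block (0.69), so 0 member genes were higher there. Whether the replicate numbers pair the samples could not be decided. Over all probes the replicate block called 65 lower and 8 higher in place of 192 and 132. It also left 0 of the other leucine-rich genes and 0 partners lower, with Lrrn1 at -0.52 and Ptprd at -0.58. Normexp called 92 probes lower and 63 higher and centring on the median 115 and 94. The median difference of all probes was 0.20 with normexp and 0.08 with median centring, against -0.04, so small differences are read against that shift.

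Centring on the median left 0 other leucine-rich genes and 0 partners lower and 1 member, Flrt2, differing between slides. The other leucine-rich genes lower were 2 with slide as a block (Lrrn1 and Lrig3) and those higher were 1 with normexp (Islr2). With single arrays left out, the other leucine-rich genes lower ranged from 0 to 2 and those higher from 0 to 1, and the partners lower from 0 to 1. Differences that changed sign were all below the threshold. With normexp they were Elfn2 (0.35), Lrrtm2 (0.21), Flrt1 (0.38), Flrt3 (-0.16), Ctnna1 (-0.11) and Macrod2 (0.015). With median centring they were Lrrtm2 (0.017), Ctnna2 (0.060) and Macrod2 (0.088). Ctnna1 also turned with quantile normalization (-0.072) and Macrod2 with the mean of its probes (0.013). With arrays left out in turn, Flrt3 ranged from -0.019 to 0.17, Ctnna1 from -0.058 to 0.079 and Macrod2 from -0.093 to 0.011. Pdgfra did not pass with normexp (-1.01). The cause of these changes was not tested. Lrrtm4 and the other dim probes are limited by signal over background.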
